A study of Homo sapiens with 6 samples.

Results

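Expression of 10 regulators of the growth kinase complex mTORC1 was described with and without leptin in OVCAR8, an established cell line from a human ovarian carcinoma. The genes were chosen by name: SESN1, SESN2, SESN3, DDIT4, TSC1, TSC2, RHEB, DEPTOR, AKT1S1 and EIF4EBP1, which are 10 of the 62700 gene IDs in the count tables. All 10 were among the 15685 genes that passed the filter on low counts. RNA sequencing covered 6 libraries: 3 of cells given PBS (Control) and 3 of cells given leptin, the adipocyte hormone, at 100 ng/ml for 24 h (Leptin). Both groups are labelled wild type and had been deprived of serum overnight. All libraries come from this 1 cell line, and the labels do not say whether each replicate had its own culture. The p-values therefore reflect only how much these libraries vary, and that variation may be technical. The study's design text asks which transcripts respond to leptin in connection with stemness of ovarian tumour cells.

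mTORC1 is a protein kinase complex that promotes protein synthesis and restrains autophagy when growth factors and amino acids are plentiful. Growth factors act through the TSC1-TSC2 complex, which switches off the small GTPase RHEB, the direct activator of mTORC1. Amino acids act through the Rag GTPases and the GATOR complexes, to which sestrins bind. DDIT4 (also called REDD1) and the sestrins are stress-induced genes whose products lower mTORC1 activity. Transcripts were measured here, not the activity of the complex.

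Total counts lay between 15609425 and 18577775 per library. The line's lineage factor PAX8 (364 CPM, counts scaled to library size, in each group) and the keratin genes KRT8 and KRT18 were abundant. EPCAM was low (3.98 and 5.48 CPM in control and leptin), and CDH1 (0.247 and 0.731 CPM) and MUC16 (0.159 and 0.138 CPM) were close to the lower end of detection. WT1 (2.39 and 2.98 CPM) and MSLN (0.32 and 0.397 CPM) were low as well. KRT7 stood at 332 and 547 CPM and was not called. Of 10 listed epithelial markers, 8 were tested and 1 was called, FOLR1, higher at 44.6 and 68.8 CPM (edgeR adjusted p = 0.0234). The 10 summed to 3110 to 3390 CPM in controls and 3550 to 3960 CPM with leptin. Markers of other cell types gave 1 higher call (the adipocyte marker CFD) and 1 lower call (the fibroblast marker POSTN) among 34 listed genes, 13 of which were tested. Summed fibroblast markers, mostly COL1A1, lay at 469 to 664 CPM in controls and 360 to 523 CPM with leptin, adipocyte markers at 19.9 to 26.8 and 29.2 to 56.4 CPM, endothelial markers at 3.37 to 5.34 and 2.14 to 4.32 CPM and immune markers at 2.06 to 2.52 and 2.61 to 4.84 CPM. PTPRC, CD3E, CD3D, MS4A1, ITGAM, LEP and LPL had 0 counts in every library, and 3 counts, the limit that a count of 0 allows, equal 0.158 to 0.2 CPM (counting error only). The part of these markers in the results below was not tested. In bulk RNA, fewer cells of a type and less RNA per cell cannot be told apart. Leptin replicate 1 fell between both groups along the first principal component (49.6% of the variance), at -2.15 against -31.0 to -23.6 in controls and 39.6 and 46.3 in leptin replicates 3 and 2.

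DDIT4, SESN2 and TSC2 rose with leptin, and 0 of the 10 genes fell. DDIT4 rose 2.65-fold (95% interval 1.93 to 3.66), SESN2 2.52-fold (1.66 to 3.81) and TSC2 1.38-fold (1.14 to 1.67). EIF4EBP1 had higher values in each leptin library and SESN1 lower ones, but neither passed the test (edgeR quasi-likelihood adjusted p = 0.0651 and 0.0561; both had an unadjusted p under 0.05, as did 27.6% of tested genes). SESN3, TSC1, RHEB, DEPTOR and AKT1S1 overlapped between the groups. Among all 15685 tested genes 9.81% were called at an adjusted p under 0.05, 5.71% as higher and 4.09% as lower. The groups did not overlap for 5 of the 10 genes, 4 with leptin above and 1 below, against 32.2% of all tested genes. The median log2 fold change of the 10 genes was 0.27, against 0.01 over all tested genes. The 10 genes were chosen with earlier results of these data known, so these comparisons with all genes are descriptions and not tests.

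**Figure D1:**
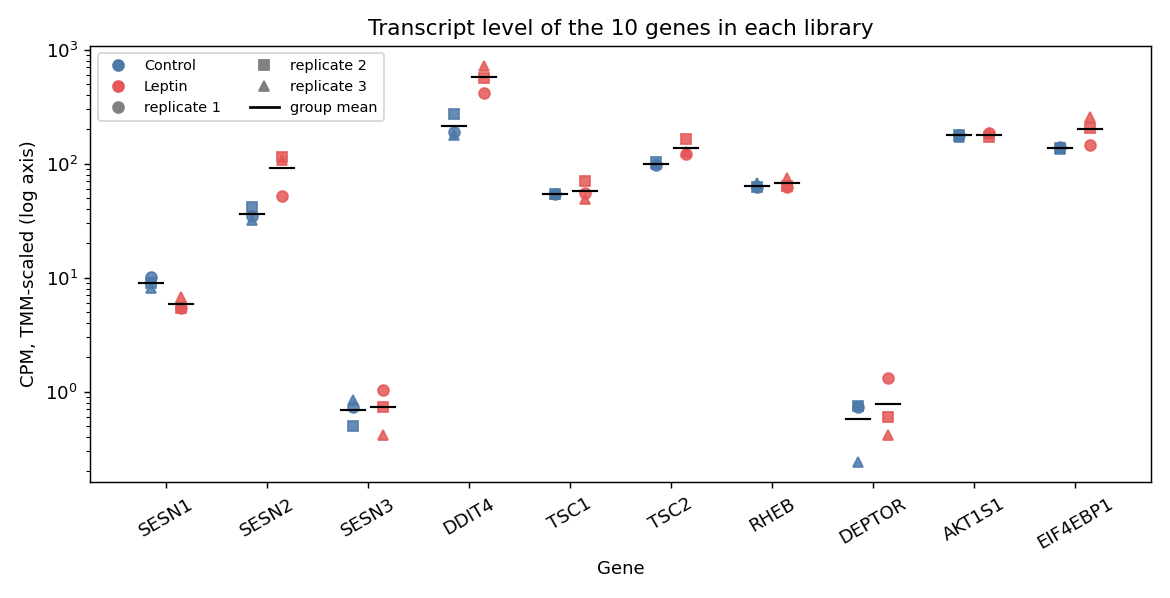
Level of each of the 10 genes in each library, in CPM on a log axis. Points are single libraries (blue Control, red Leptin, shape by replicate number) and black lines are group means. The 3 leptin libraries lie above the 3 controls for SESN2, DDIT4, TSC2 and EIF4EBP1 and below them for SESN1.

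DDIT4 encodes a short-lived stress protein that restrains mTORC1 through the TSC complex. The gene lies on chromosome 10 at 72273919 to 72276036 (hg38, plus strand), and its exons overlap no other gene of the annotation. It stood at 188, 275 and 180 CPM in control replicates 1, 2 and 3 and at 420, 567 and 722 CPM in leptin replicates 1, 2 and 3. Every leptin library lay above every control, and the lowest, leptin replicate 1, was above the highest control, replicate 2. The log2 fold change was 1.41 ± 0.21 (SE; 95% interval 0.95 to 1.87, n = 3 each, edgeR adjusted p = 0.00487), and over the 16 alternative settings the adjusted p ranged from 9.88e-23 to 0.0537. The lowest value arose with no filter on low counts. In that fit DDIT4, TSC1, TSC2, RHEB, EIF4EBP1 and AKT1S1 all had an SE of 0.13, so it says little about the spread of DDIT4 itself. The highest value arose without Control replicate 1, the 1 setting in which the call was lost (log2 fold change 1.32).

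SESN2 encodes sestrin 2, a leucine sensor that binds GATOR2 when leucine is scarce and so lowers mTORC1 activity. It lies on chromosome 1 at 28259518 to 28282491 (plus strand), with no exon overlap. Control replicates 1, 2 and 3 held 35, 41.5 and 32.0 CPM, and leptin replicates 1, 2 and 3 held 51.6, 114 and 108 CPM. All leptin libraries exceeded all controls, with leptin replicate 1 nearer to the controls than to the other leptin libraries: its log2 difference from the control mean was 0.52, against 1.66 and 1.58. The fitted log2 fold change was 1.33 ± 0.27 (SE; 95% interval 0.74 to 1.93, n = 3 each, edgeR adjusted p = 0.0187). Of the 6 fits with 1 library left out, 2 kept the call (adjusted p = 0.0457 without Control replicate 2 and 9.03e-08 without leptin replicate 1). The other 4 lost it, at an adjusted p of 0.0906 (Control replicate 1 left out), 0.0932 (Control replicate 3), 0.0796 (leptin replicate 2) and 0.0726 (leptin replicate 3), with log2 fold changes between 1.14 and 1.31.

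TSC2 encodes tuberin, the subunit that carries the GTPase-activating domain acting on RHEB. It lies on chromosome 16 at 2047967 to 2089491 (plus strand). Its level was 97.3, 103 and 98.4 CPM in controls and 121, 163 and 127 CPM with leptin (replicates 1, 2 and 3). The groups did not overlap, and leptin replicate 2 was the highest library. The log2 fold change was 0.46 ± 0.13 (SE; 95% interval 0.18 to 0.74, n = 3 each, edgeR adjusted p = 0.0434). The call was kept in 7 of 16 alternatives, with adjusted p between 0.00118 and 0.351, and among the leave-outs only without leptin replicate 1. Leaving out Control replicate 1, 2 or 3 gave an adjusted p of 0.197, 0.131 or 0.187, and leaving out leptin replicate 2 or 3 gave 0.0819 or 0.0888. Counting took no account of strand, and 784 exon bases of TSC2 (3.8% of its exon length) overlap PKD1 on the opposite strand. PKD1, which encodes polycystin 1, itself rose from 283 ± 26.0 to 491 ± 155 CPM (log2 fold change 0.79, edgeR adjusted p = 0.0323). Read pairs that touch exons of both genes were counted for neither.

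The 3 genes that rose share a high GC content. Their longest transcripts hold 58.1% (DDIT4), 59.5% (SESN2) and 60.5% (TSC2) GC, in the top GC class (58.1% and above) when tested genes are split into 5 equal classes, to which EIF4EBP1 (65.5%) and AKT1S1 (60.4%) also belong. In that class, 17.6% of all tested genes were called higher. With each library's GC trend removed, DDIT4 kept a log2 fold change of 1.25 ± 0.20 (SE, edgeR adjusted p = 0.00801) and SESN2 of 1.13 ± 0.25 (adjusted p = 0.0370). TSC2 moved to 0.23 ± 0.12 and was not called (adjusted p = 0.287), and EIF4EBP1 moved from 0.55 to 0.10 (adjusted p = 0.657). AKT1S1 changed sign, from 0.02 to -0.21 (adjusted p = 0.224).

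**Figure D2:**
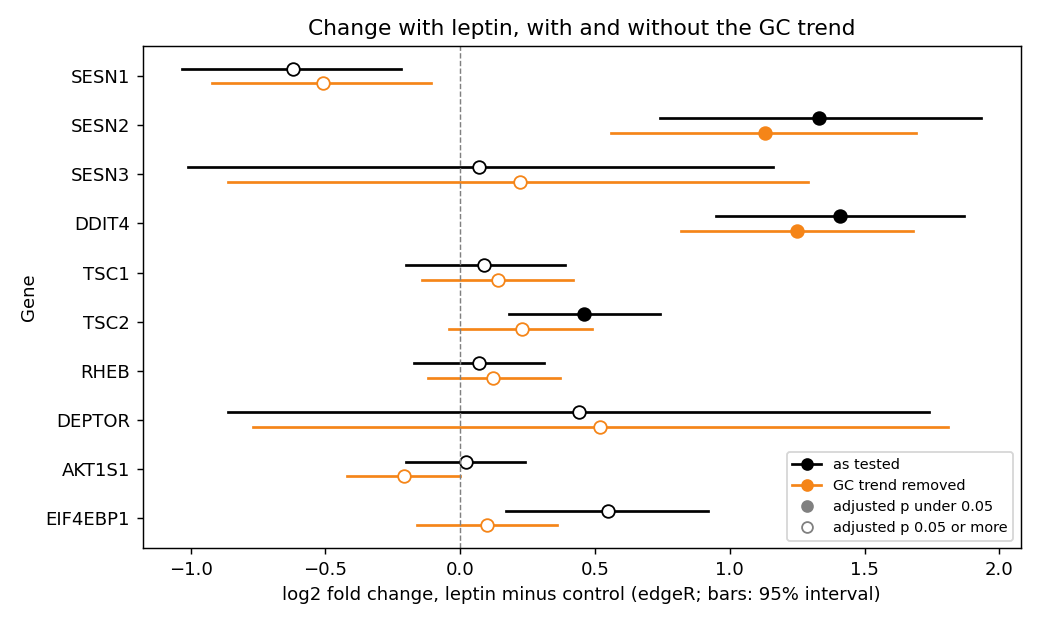
Log2 fold change (leptin minus control) of each gene with its 95% interval, as tested (black) and after removal of library GC trends (orange). Filled points have an edgeR adjusted p under 0.05. DDIT4 and SESN2 are filled in both fits, and TSC2 as tested only.

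The bases just before the start site are shown for the 3 genes that rose. The 250 bases upstream of the RefSeq start (GRCh38.p14, plus strand, 5′ to 3′) are printed for DDIT4 (chr10:72273674-72273923), SESN2 (chr1:28259268-28259517) and the first of the 2 RefSeq starts of TSC2 (chr16:2047735-2047984). Capitals mark 3 motifs searched on both strands: TGATGNAA, the C/EBP-ATF response element through which ATF4 acts; ACGTG, the core of hypoxia response elements; and CCAAT, the box bound by NF-Y.
DDIT4: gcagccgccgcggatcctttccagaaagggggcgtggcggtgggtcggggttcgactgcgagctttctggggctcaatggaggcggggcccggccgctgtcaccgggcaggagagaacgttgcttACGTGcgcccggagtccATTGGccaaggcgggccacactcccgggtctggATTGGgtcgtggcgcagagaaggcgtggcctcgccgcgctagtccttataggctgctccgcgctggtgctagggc
SESN2: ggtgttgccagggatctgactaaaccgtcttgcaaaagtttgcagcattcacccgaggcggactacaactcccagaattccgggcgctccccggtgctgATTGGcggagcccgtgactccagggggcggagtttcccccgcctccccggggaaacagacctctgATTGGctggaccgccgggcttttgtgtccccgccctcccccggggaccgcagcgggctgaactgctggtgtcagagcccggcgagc
TSC2: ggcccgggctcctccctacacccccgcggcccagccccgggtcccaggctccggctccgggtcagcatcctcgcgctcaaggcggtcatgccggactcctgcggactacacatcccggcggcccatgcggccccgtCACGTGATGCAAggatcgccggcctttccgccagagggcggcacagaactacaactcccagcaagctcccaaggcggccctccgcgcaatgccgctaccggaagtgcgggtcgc
DDIT4 holds 1 ACGTG, at -125 to -121 from the start, and 2 CCAAT boxes, at -108 to -104 and -75 to -71, both as ATTGG. SESN2 holds 2 CCAAT boxes (-151 to -147 and -86 to -82, as ATTGG) and no match to the other motifs in this window. TSC2 holds TGATGCAA at -110 to -103, overlapping the palindromic E-box CACGTG at -114 to -109, which contains ACGTG on both strands. The window of the second TSC2 start (chr16:2047952-2048201) holds no match to these motifs. Of 34788 distinct windows of the same length in RefSeq, 3.16% hold TGATGNAA, 18.5% ACGTG, 6.31% CACGTG and 32.0% CCAAT. Among the genes that were not called, RHEB holds ACGTG (as CACGT, -81 to -77) and 2 CCAAT boxes, 2 of the 3 SESN1 starts hold 1 CCAAT box each, and TSC1 and SESN3 hold no match to these motifs. A promoter was matched for 7 of the 10 genes. A match is a string of letters and not a measured binding site.

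SESN2 passed the test while the other sestrin genes, SESN1 and SESN3, did not. SESN1, a known target of p53 and FOXO factors, lies on chromosome 6 at 108984309 to 109094846 (minus strand). It stood at 10.1, 9.01 and 8.04 CPM in controls and 5.42, 5.41 and 6.77 CPM with leptin. All leptin libraries lay below all controls. Its log2 fold change of -0.62 ± 0.19 (SE; 95% interval -1.03 to -0.22) gave an unadjusted p of 0.00613 and an edgeR adjusted p of 0.0561, and the adjusted p ranged from 0.0362 to 0.245 over 16 alternatives, 4 of which called it. SESN3, the remaining sestrin gene, had 14, 8 and 14 counts in controls and 18, 11 and 7 with leptin, overlapping groups at 0.692 ± 0.176 and 0.729 ± 0.311 CPM (mean ± SD, n = 3). At this depth its interval ran from 0.497-fold to 2.23-fold.

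Scaled to exon length, SESN2 made up most sestrin transcripts in both groups. Its share of summed sestrin TPM (counts scaled by exon length, then to a common library sum) was 87.4%, 90.3% and 88.6% in control replicates 1, 2 and 3 and 94.6%, 97.6% and 97.0% in leptin replicates 1, 2 and 3. The share of SESN1 was 12%, 9.33% and 10.6% in controls and 4.73%, 2.20% and 2.90% with leptin, and that of SESN3 was under 1% in each library, at most 0.762%. The shares of SESN1 and SESN2 did not overlap between the groups. The log2 ratio of SESN2 to the 3 sestrins differed by 0.12, with an exact two-sided permutation p of 0.1, the smallest that 3 libraries against 3 can give (0.12 after Benjamini-Hochberg adjustment over 6 ratios).

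**Figure D3:**
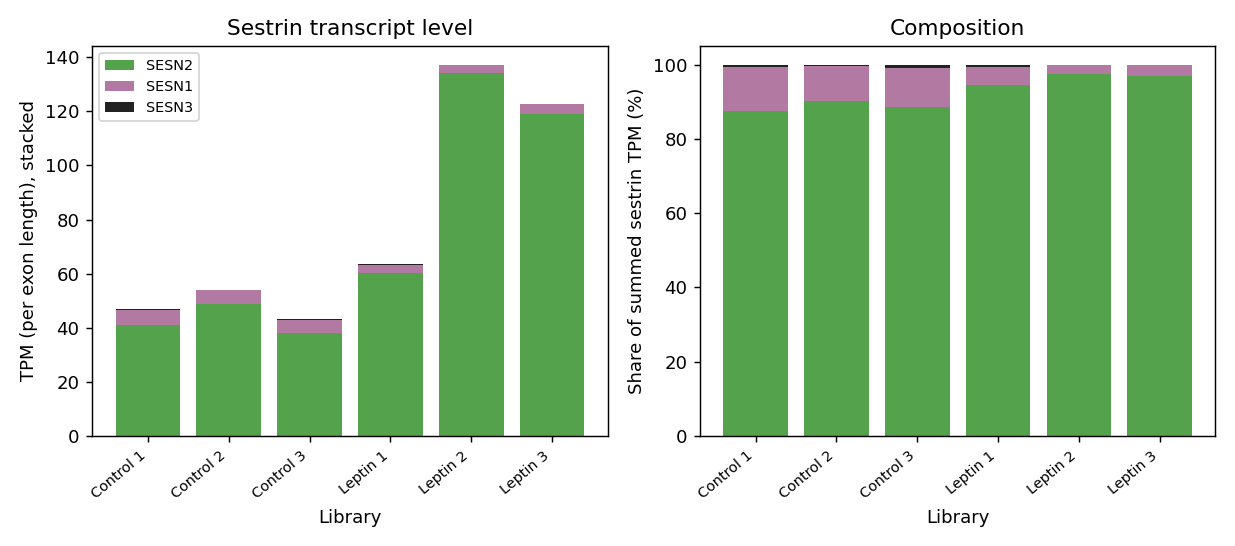
Sestrin transcripts by library. Left, TPM of SESN2, SESN1 and SESN3 stacked, and right, the same as shares of their sum in percent. Summed sestrin TPM is highest in leptin replicates 2 and 3, where SESN2 makes up 97.6% and 97.0% of it.

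TSC1, which encodes hamartin, the partner that stabilizes tuberin, lies on chromosome 9 at 132891348 to 132946874 (minus strand) and did not pass the test. It stood at 54.7, 54.6 and 54 CPM in controls and 55.2, 70.2 and 48.9 CPM with leptin, so the leptin libraries lay on both sides of the narrow control range. The log2 fold change was 0.09 ± 0.13 (SE, edgeR adjusted p = 0.694), an interval from 0.87-fold to 1.31-fold. The ratio of TSC1 to TSC2 on the TPM scale was 0.656, 0.619 and 0.639 in controls and 0.532, 0.502 and 0.448 with leptin. It was lower in each leptin library (log2 difference -0.37, exact two-sided permutation p = 0.1, adjusted 0.12). With the GC trend removed, the log2 fold change was 0.14 for TSC1 and 0.23 for TSC2, and the ratio was not recomputed. RHEB, the GTPase that the TSC complex inactivates, stood at 62.6, 62.4 and 67.8 CPM in controls and 62.8, 64.0 and 75.4 CPM with leptin. These groups overlapped (log2 fold change 0.07 ± 0.11, edgeR adjusted p = 0.728, interval 0.886-fold to 1.24-fold). The ratio of DDIT4 to RHEB TPM was 5.02, 7.36 and 4.44 in controls and 11.2, 14.8 and 16.0 with leptin, with a log2 difference of 1.33 (exact two-sided permutation p = 0.1, adjusted 0.12).

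DEPTOR and AKT1S1 encode inhibitory subunits of mTOR complexes, the latter known as PRAS40. DEPTOR was barely detected, with 14, 12 and 4 counts in controls and 23, 9 and 7 with leptin. Its log2 fold change of 0.44 ± 0.59 (SE, edgeR adjusted p = 0.671) had an interval from 0.552-fold to 3.34-fold, which spans both no change and the 2.65-fold of DDIT4. AKT1S1 stood at 179, 179 and 172 CPM in controls and 184, 170 and 185 CPM with leptin. The leptin libraries spread around the controls (log2 fold change 0.02 ± 0.10, edgeR adjusted p = 0.913, interval 0.871-fold to 1.18-fold). Its TPM ratio to RPTOR, the scaffold subunit it binds, was 3.17, 3.07 and 3 in controls and 3.38, 2.42 and 3.76 with leptin (exact two-sided permutation p = 1). AKT1S1 shares 151 exon bases (2.6% of its exon length) with TBC1D17 on the opposite strand, and the same counting applied there.

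EIF4EBP1 encodes the translation repressor that mTORC1 phosphorylates to release the cap-binding protein eIF4E. It stood at 141, 138 and 135 CPM in controls and 145, 206 and 254 CPM with leptin. Leptin replicate 1 was just above the highest control, and leptin replicates 2 and 3 were well above it. The log2 fold change was 0.55 ± 0.17 (SE; interval 1.13-fold to 1.9-fold, edgeR adjusted p = 0.0651). Leaving out leptin replicate 1 gave 0.73 and an adjusted p of 5.78e-05, leaving out leptin replicate 3 gave 0.34 and 0.224. Its partner EIF4E stood at 46.9 ± 8.15 and 37.2 ± 0.248 CPM (edgeR adjusted p = 0.132), and the paralog EIF4EBP2 at 73.3 ± 1.71 and 55.8 ± 11.8 CPM (edgeR adjusted p = 0.0981). The TPM ratio of EIF4EBP1 to EIF4E was 15.1, 20.6 and 15.2 in controls and 22.1, 31.5 and 38.3 with leptin. That of EIF4EBP1 to EIF4EBP2 was 16.3, 15.7 and 16.1 in controls and 17.8, 36.1 and 43.7 with leptin. Both ratios were higher in every leptin library (log2 differences 0.83 and 0.92, exact two-sided permutation p = 0.1 each, adjusted 0.12). Neither ratio was corrected for GC content. With the GC trend removed, the log2 fold change of EIF4EBP1 was 0.10 (edgeR adjusted p = 0.657).

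Ordered by length-scaled level in controls, EIF4EBP1 came first (641 ± 11 TPM, mean ± SD, n = 3), followed by DDIT4 (414 ± 99.9), AKT1S1 (126 ± 1.80), RHEB (74.4 ± 4.16), SESN2 (42.7 ± 5.51), TSC2 (19.8 ± 0.568), TSC1 (12.7 ± 0.0108), SESN1 (5.08 ± 0.534), DEPTOR (0.892 ± 0.446) and SESN3 (0.268 ± 0.0697). No neighbours in this order overlapped. With leptin DDIT4 stood at 1060 ± 251 TPM and EIF4EBP1 at 905 ± 221 TPM, values that overlapped between libraries (801 to 1300 and 665 to 1100 TPM). SESN2, at 104 ± 38.8 TPM, then overlapped both AKT1S1 (124 ± 4.65) and RHEB (75.5 ± 5.12). The length used is that of all annotated exons of a gene, 20527 bases for TSC2 and 17600 for TSC1, so levels of genes with many alternative exons are understated on this scale.

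The rise was uneven among leptin libraries. Leptin replicates 1, 2 and 3 differed from the control mean by 1, 1.43 and 1.78 (log2) for DDIT4, by 0.28, 0.71 and 0.36 for TSC2 and by 0.07, 0.58 and 0.88 for EIF4EBP1. For SESN1 these differences were -0.72, -0.72 and -0.40. Leptin replicate 1 was thus the lowest leptin library for DDIT4, SESN2, TSC2 and EIF4EBP1, and within the range of the other leptin libraries for SESN1. Without leptin replicate 1 there were 5 calls, EIF4EBP1 higher and SESN1 lower (adjusted p = 0.0372) in addition to the 3, but then 4761 of all tested genes were called as well. Leaving out Control replicate 1 left 0 calls among the 10 genes, leaving out Control replicate 2 left 2, and each of the other omissions left 1.

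**Figure D4:**
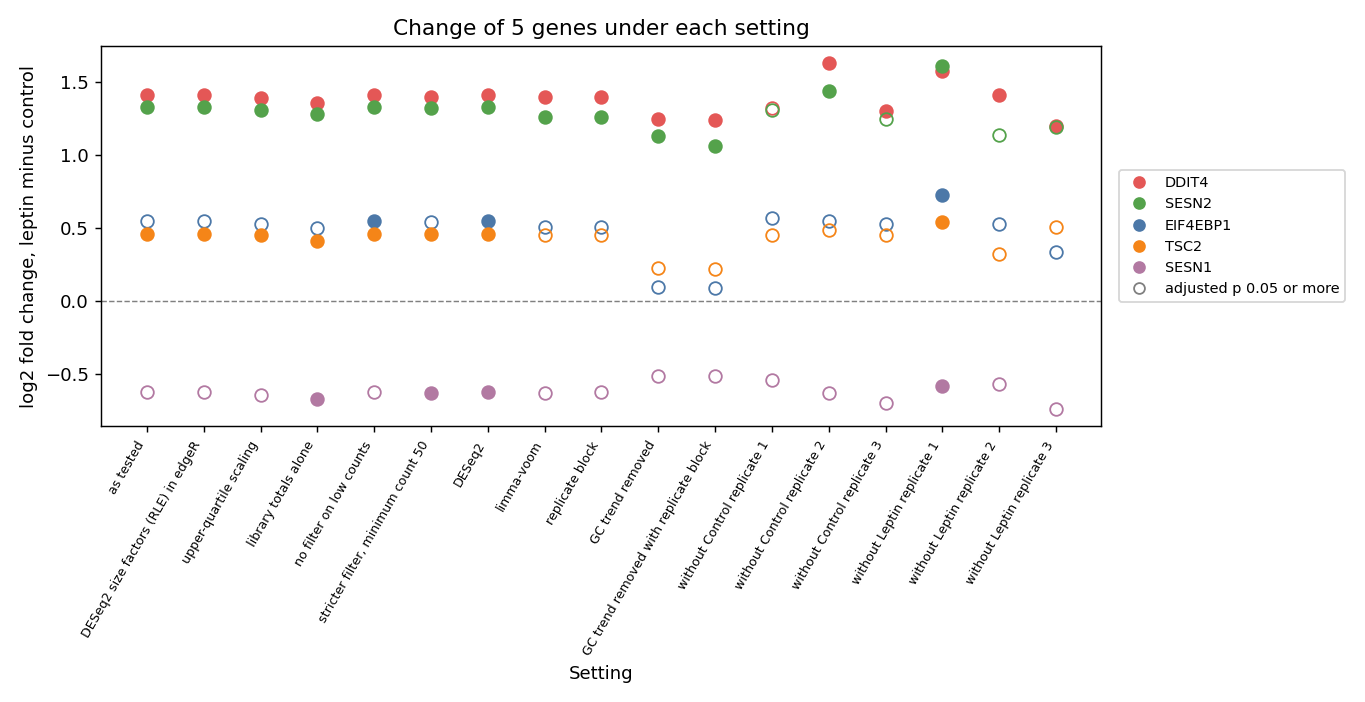
Log2 fold change (leptin minus control) of DDIT4, SESN2, EIF4EBP1, TSC2 and SESN1 as tested and under 16 alternative settings on the horizontal axis. Filled points have an adjusted p under 0.05. DDIT4 is open in 1 alternative, without Control replicate 1, and TSC2 and EIF4EBP1 lie closest to 0 with the GC trend removed.

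Genes elsewhere in the pathway were taken from 9 lists of 136 genes, of which 131 were tested. In all, 20 rose and 2 fell (16.8% called, against 9.81% of all tested genes, median log2 fold change 0.09). With the GC trend removed 12 were called higher and 5 lower (median 0.07), and 13 of the 22 calls remained. Among 9 mTOR complex core subunits, PRR5, a partner of RICTOR in mTORC2, rose from 27.2 ± 1.48 to 51.0 ± 16.6 CPM (edgeR adjusted p = 0.0252). TTI1, an assembly factor of mTOR and related kinases, fell from 34.3 ± 3.92 to 22.2 ± 2.25 CPM (edgeR adjusted p = 0.0168), and neither MTOR nor RPTOR passed the test. Of 15 genes of GATOR, KICSTOR and the amino acid sensors, 1 rose, the GATOR2 gene WDR24 (20.5 ± 0.626 to 31.5 ± 2.88 CPM, edgeR adjusted p = 0.0131), and 0 fell. Of 13 genes of the Rag GTPases, Ragulator and folliculin, FLCN, whose product activates RagC and RagD, rose from 49.2 ± 0.528 to 63.3 ± 1.14 CPM (edgeR adjusted p = 0.0409). The share called was 6.67% in the GATOR list and 7.69% in the Rag list, both below the 9.81% of all tested genes. None of 19 genes of growth factor and energy inputs was called (edgeR; 4 had an unadjusted p under 0.05, and DESeq2 called 2).

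Among 18 tested mTORC1 substrates and effectors 2 rose and 0 fell (11.1% called, near the 9.81% of all tested genes). EEF2, the translation elongation factor gene, rose from 2740 ± 122 to 4360 ± 921 CPM (edgeR adjusted p = 0.0264), and ULK1, the kinase that starts autophagy, rose from 121 ± 11.5 to 164 ± 10.8 CPM (adjusted p = 0.0337). PRR5, WDR24, FLCN, EEF2 and ULK1 all lost their calls with the GC trend removed (adjusted p between 0.0775 and 0.706), while TTI1 kept it (0.0255). Exons of WDR24 overlap other genes over 35.7% of their length.

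**Figure D5:**
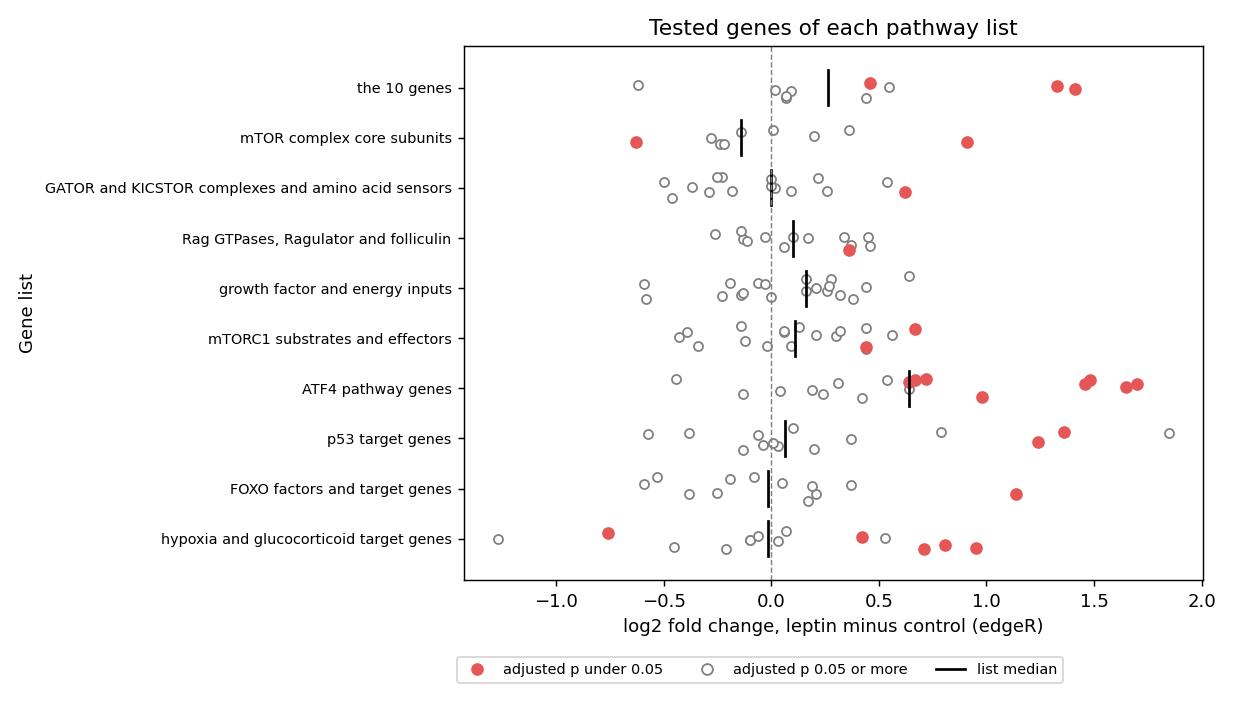
Log2 fold change (leptin minus control) of each tested gene, by list. Red points have an edgeR adjusted p under 0.05, open points do not, and black lines are list medians. The ATF4 list has the highest median, 0.64, with 8 genes called.

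The gene lists of pathways known to induce sestrins and DDIT4 differed in their counts. All lists were chosen with earlier results of these data known, so their shares are descriptions and not tests. Of 17 tested ATF4 pathway genes, the arm that answers amino acid shortage and endoplasmic reticulum stress, 8 rose and 0 fell (47.1% called, median log2 fold change 0.64). ATF4 itself rose from 464 ± 27.5 to 740 ± 128 CPM (edgeR adjusted p = 0.0166), DDIT3 (CHOP) from 22.2 ± 3.40 to 72.2 ± 34.4 CPM (adjusted p = 0.0252), the phosphatase subunit gene PPP1R15A from 57.3 ± 6.51 to 179 ± 72.1 CPM (adjusted p = 0.0142) and SLC3A2 from 628 ± 37.9 to 1240 ± 369 CPM (adjusted p = 0.0143). The median difference of this list from the control mean was 0.27, 0.68 and 0.76 (log2) in leptin replicates 1, 2 and 3. With the GC trend removed 5 of the 8 kept their calls, these 4 and ATF3, and the list's median was 0.43. TRIB3 (adjusted p = 0.0562), CHAC1 (0.158) and CEBPB (0.289) lost theirs in that fit. For DDIT3, 39.6% of the exon length overlaps other annotated genes. ASNS, a usual marker of this arm, had 97 counts in all 6 libraries together, and 49.3% of its exon length overlaps other annotated genes.

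Of 14 p53 target genes, 2 rose and 0 fell (14.3% called, median log2 fold change 0.06): BBC3, a mediator of cell death, from 13.8 ± 2.53 to 32.7 ± 9.87 CPM (edgeR adjusted p = 0.00871) and CDKN1A, the cell cycle inhibitor p21, from 33.1 ± 2.48 to 85.2 ± 35.7 CPM (adjusted p = 0.0276). With the GC trend removed BBC3 kept its call at a log2 fold change of 0.64, against 1.24 as tested, and CDKN1A lost its call at 1.21, against 1.36 (edgeR adjusted p = 0.0584). MDM2 stood at 40 CPM in controls, 36.5 CPM with leptin, and was not called. Of 12 FOXO factors and targets 1 rose (8.33% called), TXNIP (118 ± 22.7 to 260 ± 85.1 CPM, edgeR adjusted p = 0.0204), a gene also induced by glucose. Among 14 tested hypoxia and glucocorticoid targets, TSC22D3 (GILZ, 46.1 ± 4.58 to 88.9 ± 10.9 CPM, edgeR adjusted p = 0.00334), ADM (24.7 ± 1.06 to 43.4 ± 7.92 CPM, adjusted p = 0.00845), VEGFA and NDRG1 rose. FKBP5, a glucocorticoid target like TSC22D3, fell from 11.5 ± 1.05 to 6.82 ± 0.987 CPM (edgeR adjusted p = 0.0229), so this list moved in both directions. In all, 5 of these 14 genes were called (35.7%, median log2 fold change -0.01). With the GC trend removed the same 5 genes kept their calls (list median 0.05). TSC22D3 was the 1 listed gene called in all 6 leave-outs. Of the 22 called list genes, the count still called was 1, 3 and 1 when Control replicate 1, 2 or 3 was left out, and 22, 7 and 4 when leptin replicate 1, 2 or 3 was.

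The genes whose pattern over the 6 libraries was most like that of DDIT4, SESN2 and TSC2 were sought by Pearson's r of log2 CPM among 9434 protein-coding genes with a mean of at least 10 CPM. For DDIT4 they were LOXL1 (r = 0.9992), ZFTA, SLC12A9, LETMD1 and HTRA1. LOXL1, a lysyl oxidase family gene, had a mean of 55.5 ± 6.11 CPM (control) and 88.1 ± 11.3 CPM (leptin). For SESN2 they were SLC25A6 (r = 0.9997), FAM171A2, HCN2, RNF187 and MIB2. SLC25A6, an ADP/ATP carrier gene, stood at 504 ± 23.0 and 670 ± 93.5 CPM, a log2 fold change of 0.41 against 1.33 for SESN2. For TSC2 they were ACVR2B (r = 0.9981), PRKCZ, JMY, KCTD1 and DNM2. Of all these, SLC25A6, LETMD1, ACVR2B, KCTD1 and DNM2 were not called (edgeR adjusted p between 0.0677 and 0.114), and the others were. Pearson's r takes no account of the size of a change. The 6 points share the group difference and each library's composition, so such values are a description of these libraries.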

How the data were processed

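RNA of 3 control and 3 leptin libraries was sequenced. The authors deposited raw counts of fragments for each gene, 1 file a library, made with featureCounts 2.0.1 on GENCODE 44 without strand, and with pairs that touch exons of more than 1 gene left out, per the file headers. The submitters' processing notes name HISAT2 2.0.5, featureCounts 1.5.0-p3, DESeq2 and the hg38 genome.

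Counts were tested with edgeR 4.0.16 (quasi-likelihood, robust, TMM scaling, genes kept by a minimum count of 10 and total of 15), with Benjamini-Hochberg adjustment over all 15685 tested genes and a threshold of 0.05. CPM (TMM-scaled) and TPM (by the files' exon length) were computed here from the deposited counts. Standard errors follow from the fold change and the F statistic. The 6 ratios were compared by exact two-sided permutation tests and were not corrected for GC content. GC content came from the longest GENCODE 29 transcript and was known for 97.2% of tested genes. Alternatives were DESeq2 1.42.0, limma-voom 3.58.1, other scalings and filters, a replicate block, removal of GC trends (lowess span 0.3) and leaving out each library.

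The members and lists were chosen with earlier results of these data known, as was the GC alternative. Named were all 10 genes, in each list at most 4 called genes, taken by adjusted p, the 5 protein-coding genes with a mean of at least 10 CPM most correlated (Pearson, log2 CPM) with each called gene of the 10, and the ratio partners EIF4E, EIF4EBP2 and RPTOR. Also named, after their values were seen, were PKD1, TBC1D17, NDRG1, MTOR, MDM2, ASNS, ATF3, TRIB3, CHAC1 and CEBPB. Promoters are from RefSeq (GRCh38.p14).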

Additional observations from a re-analysis of the deposited data

How the results depend on the processing

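DDIT4 was called in 15, SESN2 in 12, TSC2 in 7, SESN1 in 4 and EIF4EBP1 in 3 of 16 alternatives, with 1 direction for each of these genes throughout. Genes called numbered 1538 as tested, 2437 with no filter on low counts, 868 with the GC trend removed (426 higher, 442 lower, against 896 and 642 as tested) and 942 with the GC trend removed and a replicate block. DESeq2 called 5 of the 10 genes and 34 list genes, but also 2250 of all tested genes, against 1538 as tested. Leaving out 1 library gave 0 to 5 of the 10 genes, 1 to 60 list genes and 115 to 4761 of all genes, the highest without leptin replicate 1. Same-numbered libraries did not deviate together (r = -0.05, 0.01 and -0.11), and a replicate block called 2 of the 10 genes, with TSC2 lost (adjusted p = 0.0514, as with limma-voom at 0.0511), and 1303 of all genes. Some uncalled genes changed sign. AKT1S1 moved from 0.02 to -0.02 with library totals alone, to -0.21 with the GC trend removed, with or without the block, to 0 without leptin replicate 1 and to -0.01 without leptin replicate 3. SESN3 moved to -0.11 without Control replicate 2 and -0.29 without leptin replicate 1, DEPTOR to -0.2 without leptin replicate 1, TSC1 to -0.07 without leptin replicate 2 and RHEB to -0.02 without leptin replicate 3. Over the leave-outs AKT1S1 ranged from -0.01 to 0.06, SESN3 from -0.29 to 0.35, DEPTOR from -0.2 to 0.74, TSC1 from -0.07 to 0.2 and RHEB from -0.02 to 0.11. The log2 ratio of SESN2 to all sestrins differed by 0.23 without length scaling, and that of AKT1S1 to RPTOR by -0.11 to 0.21 over the leave-outs. The causes of these changes were not tested. Depth limits SESN3 and DEPTOR, with 4 to 23 counts per library.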
